A study of Mus musculus with 6 samples.

Results

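The genes described are 43 of the 24499 rows of a gene count table. They encode the machinery that brings proteins into mitochondria, the chaperones and proteases that receive them, and factors that keep and read mitochondrial DNA. Of them, 26 were taken because their symbol starts with Timm or Tomm and 17 because they were named outright: *Hspd1*, *Hspe1*, *Hspa9*, *Trap1*, *Lonp1*, *Clpp*, *Clpx*, *Pmpca*, *Pmpcb*, *Tfam*, *Tfb2m*, *Polrmt*, *Twnk*, *Polg*, *Grpel1*, *Pam16* and *Dnajc19*. *Twnk* stands in the table under its older symbol *Peo1*. The table covers induced germinal center B cells (iGCBs) from 3 cKO and 3 control mice on a C57BL/6J background. cKO mice carry *Eif3e* fl/fl, Cγ1Cre and Rosa26-YFP LSL, so a B cell that has begun to transcribe its Ig γ1 locus makes Cre, loses *Eif3e* and starts to express YFP. The genotype label of the other 3 mice says control only. Their cells were sorted as YFP+ as well, which takes a Cre and the YFP reporter, and the study elsewhere gives control mice Cγ1Cre and Rosa26-YFP LSL, while the *Eif3e* alleles of these 3 are not labelled. Naive splenic B cells of each mouse grew for 3 days, by the sample labels, on 40LB feeder cells with 1 ng/ml IL-4, and YFP+ cells were sorted. 40LB is a BALB/c 3T3 fibroblast line that carries CD40L and BAFF, irradiated here with 120 Gy. A general growth note gives a longer culture than the sample labels.

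Nearly all mitochondrial proteins are made in the cytosol. They cross the outer membrane through the TOM complex, are handed on by small TIM chaperones in the intermembrane space, and reach the inner membrane or matrix through the TIM22 and TIM23 translocases, the latter pulled by a motor built around the Hsp70 protein mortalin. In the matrix a peptidase removes the targeting sequence, the Hsp60 and Hsp10 chaperonin folds the protein, and the Lon and ClpXP proteases degrade what fails. Mitochondrial DNA lies in nucleoids with its packaging factor TFAM and its own polymerases, and activated B cells build up mitochondria as they grow.

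Levels are given as CPM, the estimated count of a gene per 1000000 counts of its library after TMM scaling, as mean ± SD over 3 mice. Totals ranged from 39079582 to 45504570 counts per library, so that 3 counts equal 0.0661 to 0.0763 CPM. The row of *Eif3e*, the deleted gene, held 173, 150 and 152 CPM in the cKO libraries and 424, 401 and 392.4 CPM in the controls, a fall to 39% of control. Which of its exons are floxed was not used here, so counts from exons outside the deletion are part of this value. B cell markers summed to 4803 to 4998 CPM in cKO and 4785 to 5092 CPM in control libraries, and of the 8, 4 were higher and 4 lower in cKO, with log2 fold changes from -0.86 to 0.49. *Xist* was high in 1 cKO and 2 control libraries. Fewer cells of a type and less RNA per cell cannot be told apart in these bulk samples.

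More of these genes rose than fell in cKO iGCBs. Of the 43 genes, 41 had enough counts to be tested. *Tomm20l* had 0 counts in every library and *Timm8a2* had at most 13. With edgeR's quasi-likelihood test and Benjamini-Hochberg adjustment over 13296 genes, 22 of the 41 were higher at an adjusted p under 0.05, 6 were lower and 13 did not pass. Among all genes tested, 24.1% were higher and 24.5% lower. Of the 41, 10 were higher by more than 1.5-fold, against 10.4% of all genes, and 0 were lower by that much, against 10.6%, which DESeq2 and the unadjusted p values of edgeR also gave. Their median log2 fold change was 0.30, with quartiles at 0.10 and 0.56, while the median of all genes was -0.0040. Every cKO library lay above every control library for 26 of the 41, against 29.2% of all genes, and below for 7, against 29.5%. Summed over the 43 genes, the level was 3801, 4067 and 3638 CPM in the cKO libraries and 3027, 2880 and 3110 CPM in the controls. These are separate sums with no overlap, the lowest cKO library lying above the highest control. A large part of each sum came from *Hspa9*, *Hspd1* and *Hspe1*. Their mean shares were 15.7%, 10.7% and 7.25% in cKO and 13.2%, 6.80% and 5.57% in control. The count of 6 lower genes is the least stable of these values: it was 3 without cKO replicate 3, without control replicate 1 or with the *Xist* level as a covariate.

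**Figure D1:**
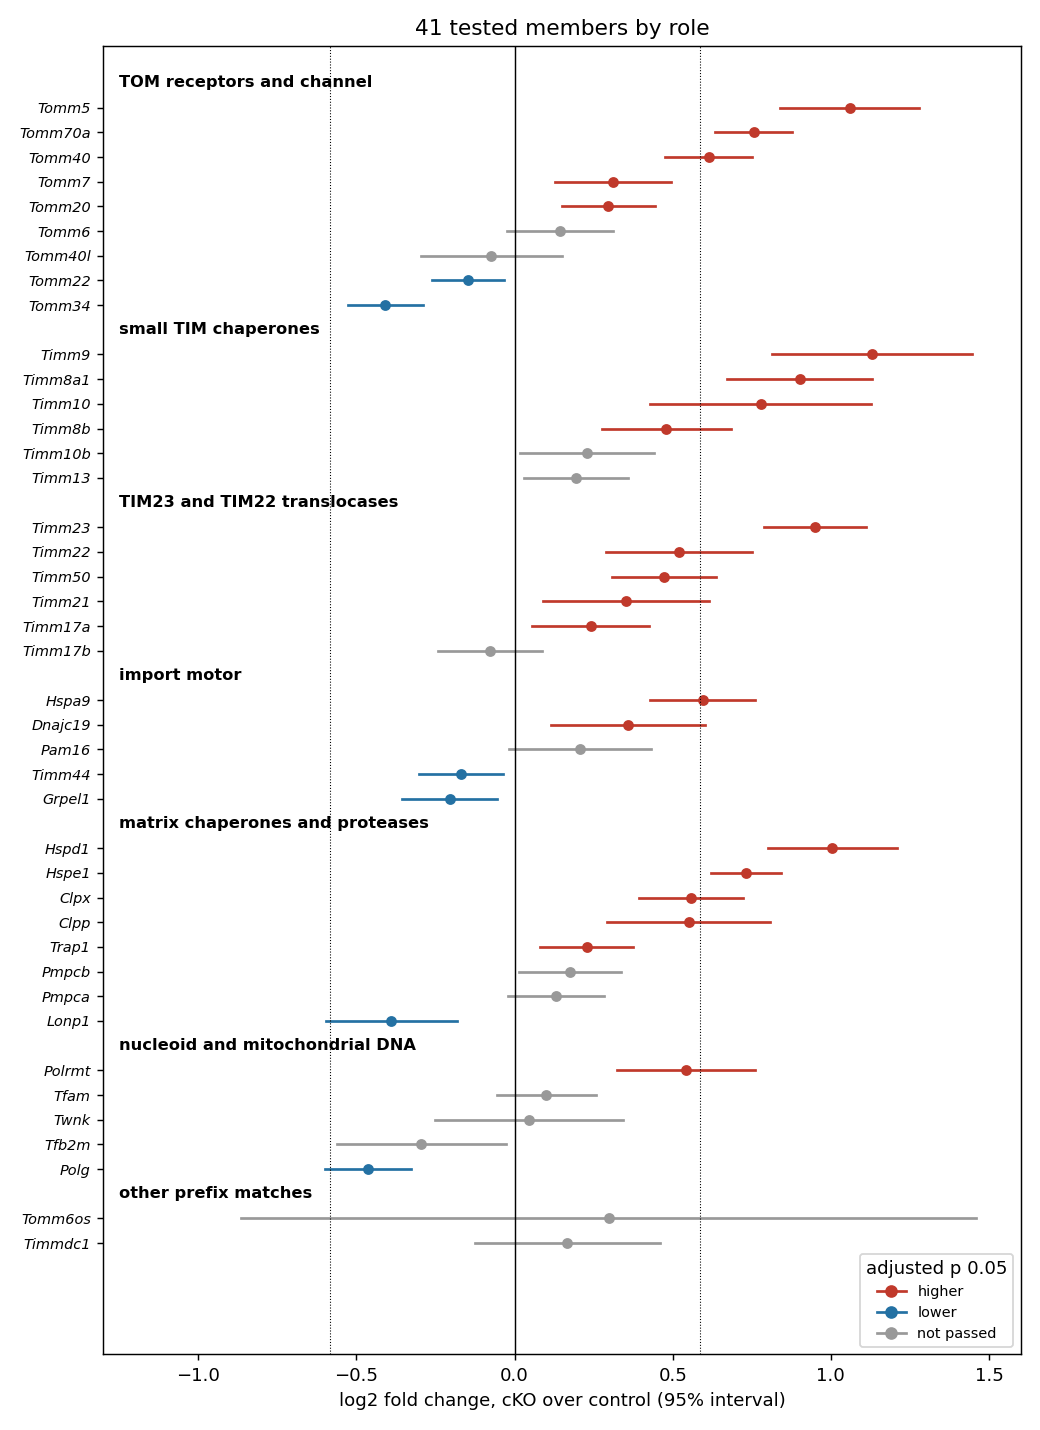
Log2 fold change of cKO over control (x axis) for the 41 tested genes, grouped by role, as a point with its 95% interval from edgeR. Red genes were higher and blue genes lower at an adjusted p of 0.05, grey genes did not pass, and dotted lines mark 1.5-fold; *Timm9*, *Tomm5* and *Hspd1* lie farthest to the right, and no blue point reaches the left dotted line.

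The 300 bases around each start site, from 250 before to 50 after it in RefSeq's GRCm38.p6 table, follow for *Timm9*, *Tomm5*, *Hspd1* and *Timm23*, which rose most, and the 3 genes that fell most, so that the letters can be read beside the values. *Hspd1* has 2 windows, and the second is given as the nearly coincident window of *Hspe1*. *Tomm34* also has 2, which overlap, and 1 of them is printed. 39 of the 43 genes had a window, some of them 2. Capitals mark any of 6 motifs on either strand: CACGTG (the E-box), CCGGAAG (ETS factors such as GABP), GCGCANGC (NRF1), AAGATGGC (YY1), TGATGNAA (ATF4 and CHOP) and GAANNTTC (a pair of heat shock units). The E-box stood in the windows of 5 of 19 higher genes, 1 of 6 lower genes and 1 of 12 that did not pass, and in 11.7% of the 10100 tested genes that had a window. The ETS motif stood in 8 of 19 higher, 4 of 6 lower and 6 of 12 genes that did not pass, against 19.99% of tested genes. The 8 include *Hspd1* and *Hspe1*, whose ETS letters lie in the same stretch of DNA. A gene with 2 windows was counted if either held the motif. The heat shock pair stood in 3 of 19 higher genes, 0 of 6 lower genes, 0 of 12 that did not pass and in 6.80% of tested genes, but *Hspd1* and *Hspe1*, 2 of those 3, share a single stretch of DNA. The NRF1 motif stood in 5 of 19 higher, 1 of 6 lower and 4 of 12 other genes, against 22.3%. The YY1 motif was in 1 higher gene and the ATF4 and CHOP motif in 0 of the 37 tested genes with a window, against 5.24% and 2.76%. Over all 32851 windows the shares were 7.15% for the E-box, 8.86% for ETS, 9.95% for NRF1, 2.75% for YY1, 3.97% for ATF4 and CHOP and 7.86% for the heat shock pair. These are matches of letters, with no measurement of binding.

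Of 9 tested genes grouped as TOM genes, 5 rose (55.6%, against 24.1% of all genes) and 2 fell (22.2%, against 24.5%). The 2 lower genes were *Tomm22* and *Tomm34*, and *Tomm34* encodes a mostly cytosolic protein. *Tomm70a*, the receptor for carrier proteins brought by cytosolic chaperones, stood at 218, 238 and 223 CPM in cKO and 139, 129 and 134 CPM in control libraries. All cKO values were higher, and the log2 fold change was 0.76 (standard error 0.054, edgeR adjusted p = 4.02e-06). *Tomm20*, the receptor for targeting sequences and the TOM gene with the most counts, stood at 225, 241 and 215 CPM against 181, 173 and 200 CPM. Its groups did not overlap either, with a smaller log2 fold change of 0.30 (edgeR adjusted p = 0.00403). *Tomm22*, the central receptor, measured 82.3 ± 0.588 CPM in cKO and 91.1 ± 2.64 CPM in control, a log2 fold change of -0.15 (edgeR adjusted p = 0.0359). That small fall lost its call under 9 of 13 alternatives, where its edgeR adjusted p reached 0.126. Among them was leaving out any library but control replicate 2. *Tomm34* was then the only lower gene of the group.

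*Tomm40*, the channel itself, rose from 80.4 ± 3.86 to 123 ± 6.99 CPM. It stood at 118, 131 and 120 CPM in cKO and 81.5, 76.1 and 83.6 CPM in control libraries, which did not overlap, a log2 fold change of 0.61. Its paralog *Tomm40l* was 21.8 ± 2.34 and 23.0 ± 0.263 CPM, with overlapping groups and an interval of the log2 difference from -0.30 to 0.15. Of the annotated exon bases of *Tomm40l*, 64.3% are also exons of *Nr1i3* on the other strand. Among the small subunits around the channel, *Tomm5* changed most, with 55.0, 65.1 and 56.9 CPM in cKO and 24.97, 29.8 and 30.1 CPM in control libraries. The lowest cKO value was above the highest control value, and the log2 fold change was 1.06 (standard error 0.099, edgeR adjusted p = 1.78e-05). *Tomm7* rose by a log2 fold change of 0.31, and *Tomm6*, whose exons overlap those of *Gm21981* on the same strand and of an antisense RNA, had 0.14 and did not pass. The *Tomm5* window holds none of the motifs searched.
Tomm5 promoter, chr4:45108064-45108363, minus strand: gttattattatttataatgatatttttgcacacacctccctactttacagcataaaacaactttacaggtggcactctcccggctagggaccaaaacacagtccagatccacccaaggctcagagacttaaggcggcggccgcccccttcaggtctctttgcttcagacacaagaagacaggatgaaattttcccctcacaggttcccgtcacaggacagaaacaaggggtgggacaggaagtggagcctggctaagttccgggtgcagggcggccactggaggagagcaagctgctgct

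*Tomm34*, a mostly cytosolic protein that binds Hsp70 and Hsp90 and has been linked to import, fell. Its libraries held 77.6, 82.9 and 79.96 CPM in cKO and 103, 108 and 108 CPM in control, with every cKO value lower. The log2 fold change was -0.41 (standard error 0.053, edgeR adjusted p = 0.000146), and the call held under all 13 alternatives. It has 2 overlapping windows, and both carry the ETS motif.
Tomm34 promoter, chr2:164071120-164071419, minus strand: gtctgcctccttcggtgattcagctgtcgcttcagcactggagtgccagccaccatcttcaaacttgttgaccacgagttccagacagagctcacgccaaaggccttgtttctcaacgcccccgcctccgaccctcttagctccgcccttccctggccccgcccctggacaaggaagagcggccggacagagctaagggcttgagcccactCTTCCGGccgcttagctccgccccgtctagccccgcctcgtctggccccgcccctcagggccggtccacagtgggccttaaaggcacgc

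The small TIM chaperones had the highest median log2 fold change of the roles, 0.63, and for all 6 that were tested every cKO library was above every control library, as for 29.2% of all genes. 4 of the 6 rose, against 24.1% of all genes. *Timm9* and *Timm10* form a hexamer that carries hydrophobic precursors. *Timm9* stood at 26.7, 22.6 and 21.2 CPM in cKO and 11.6, 8.70 and 11.9 CPM in control libraries. The lowest cKO library was well above the highest control, a 2.19-fold difference and the largest among these genes, 1.13 on the log2 scale (standard error 0.14, edgeR adjusted p = 0.000113). *Timm10* stood at 11.5, 14.98 and 11.7 CPM against 7.16, 8.68 and 6.44 CPM, a log2 fold change of 0.78 on lower counts, with an interval from 0.43 to 1.13. *Timm8a1* and *Timm13* form the other hexamer. *Timm8a1*, the mouse form of the gene mutated in deafness dystonia syndrome, stood at 43.1, 46.2 and 45.8 CPM against 26.0, 20.5 and 25.7 CPM, with a log2 fold change of 0.90 (edgeR adjusted p = 6.00e-05). The only transcript assigned to *Timm8a1* held 10.2, 12.2 and 12.0 CPM in cKO and 5.47, 5.57 and 6.22 CPM in control libraries, 21.0% to 27.1% of the gene row, and what the rest of the row counts is uncertain. An annotated copy, *Gm9797*, is 100% identical over 43.1% of the *Timm8a1* transcript and was not tested. The partner of *Timm8a1*, *Timm13*, had 58.1, 64.4 and 58.3 CPM against 54.0, 48.7 and 55.2 CPM. These did not overlap, but the log2 fold change of 0.19 missed the threshold at an edgeR adjusted p of 0.0529, which passed under 4 of 13 alternatives. *Timm8b* rose by 0.48 and *Timm10b*, which docks the hexamer on TIM22, had 0.23 and did not pass. Counts of *Timm8a2* were too low for a test, with a mean of 0.242 CPM in cKO and 0.0635 CPM in control. The *Timm9* window holds a pair of E-boxes and the heat shock pair.
Timm9 promoter, chr12:71136626-71136925, minus strand: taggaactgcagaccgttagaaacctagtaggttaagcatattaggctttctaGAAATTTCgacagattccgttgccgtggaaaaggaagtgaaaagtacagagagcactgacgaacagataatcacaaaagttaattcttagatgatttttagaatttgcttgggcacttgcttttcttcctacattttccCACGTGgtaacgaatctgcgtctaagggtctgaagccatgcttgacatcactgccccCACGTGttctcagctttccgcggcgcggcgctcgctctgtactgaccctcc

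In the inner membrane translocases, 5 of 6 genes rose, against 24.1% of all genes, and *Timm17b* did not pass. *Timm23*, which forms the presequence channel with Tim17, stood at 120, 113 and 105 CPM in cKO and 56.7, 55.0 and 63.1 CPM in control libraries. The groups lay far apart, and the log2 fold change was 0.95 (standard error 0.072, edgeR adjusted p = 5.43e-06). An annotated gene copy, *Gm10273*, is 99.9% identical over 95.6% of the *Timm23* transcript and is not among the genes tested, so the counting of reads that match both is uncertain. The Tim17 paralogs differed: *Timm17a* rose from 29.7 ± 1.72 to 35.1 ± 1.63 CPM, a log2 fold change of 0.24, while *Timm17b* was 45.6 ± 1.94 CPM in control and 43.2 ± 2.25 CPM in cKO. The ratio of *Timm17a* to *Timm17b* within a library was 0.814 ± 0.0582 in cKO and 0.654 ± 0.0642 in control, with no overlap. *Timm50*, the receptor of the complex, rose by a log2 fold change of 0.47 and *Timm21*, which bridges it to TOM, by 0.35. *Timm22*, the translocase for carriers, rose from 24.2 ± 3.19 to 34.7 ± 0.401 CPM, a log2 fold change of 0.52. *Timm29*, a further TIM22 subunit, stands in the table as *1810026J23Rik* and so escaped the prefix. It was 105 ± 9.07 CPM in cKO and 71.4 ± 3.32 CPM in control, a log2 fold change of 0.55. The calls of *Timm17a* and *Timm21* were lost under 5 and 4 of 13 alternatives. The *Timm23* window holds the ETS motif on each strand.
Timm23 promoter, chr14:32201842-32202141, minus strand: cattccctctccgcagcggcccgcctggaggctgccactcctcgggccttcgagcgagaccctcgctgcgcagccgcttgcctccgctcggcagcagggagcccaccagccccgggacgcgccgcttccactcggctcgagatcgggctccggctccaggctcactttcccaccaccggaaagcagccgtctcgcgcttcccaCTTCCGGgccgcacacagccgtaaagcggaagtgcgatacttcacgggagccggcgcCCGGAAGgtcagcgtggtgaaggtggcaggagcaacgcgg

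**Figure D2:**
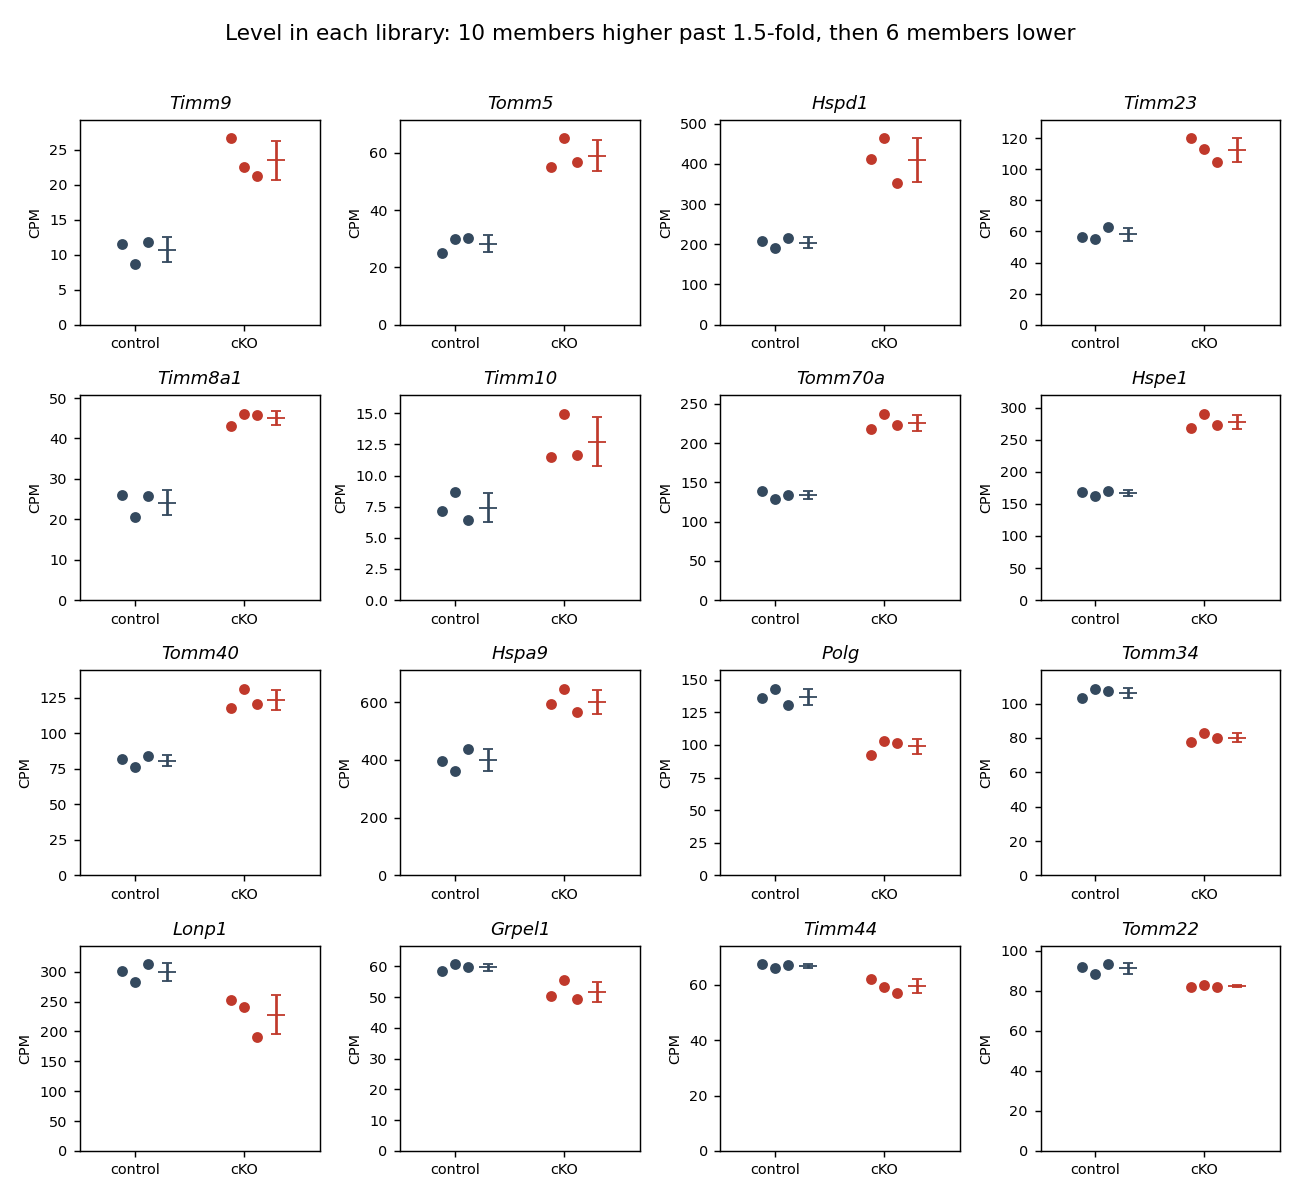
CPM in each library (points, y axis from 0) for the 10 genes higher by more than 1.5-fold and then the 6 lower genes, with the mean and SD of 3 mice beside the points. No cKO point overlaps a control point in any of the 16 panels, and the gap is narrow in the last 3.

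Of 5 import motor genes, 2 rose and 2 fell, against 24.1% and 24.5% of all genes. *Hspa9*, the Hsp70 motor protein mortalin and the member with the most counts, stood at 594, 646 and 565 CPM in cKO and 398, 361 and 437 CPM in control libraries. All cKO values were higher, and *Hspa9* rose by 0.59 on the log2 scale (standard error 0.075, edgeR adjusted p = 0.000118). *Dnajc19*, a J-protein of the motor, rose by 0.36, a call lost under 3 of 13 alternatives, and its relative *Pam16* had 0.21 and did not pass. Both have annotated copies that were not tested. *Dnajc19-ps* is 99.1% identical over 53.3% of the *Dnajc19* transcript, and *Gm9803* is 100% identical over 89.6% of that of *Pam16*. *Grpel1*, which lets mortalin exchange its nucleotide, was lower at 51.7 ± 3.23 CPM against 59.7 ± 1.1 CPM, and *Timm44*, which tethers mortalin to the channel, at 59.4 ± 2.55 CPM against 66.9 ± 0.703 CPM. Their log2 fold changes were -0.21 and -0.17, and these calls were lost under 5 and 8 of 13 alternatives. Both were lost, leaving 0 of 2, without cKO replicate 3, control replicate 1 or control replicate 2 and with the *Xist* covariate. Within a library, the ratio of *Hspa9* to *Grpel1* was 11.8, 11.7 and 11.5 in cKO and 6.80, 5.95 and 7.30 in control. The cKO ratios were tightly grouped and all higher than the controls.

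Of 8 matrix chaperone and protease genes, 5 rose and 1 fell, against 24.1% and 24.5% of all genes, and both chaperonin genes were among the 5. *Hspd1*, which encodes Hsp60, stood at 412, 464 and 353 CPM in cKO and 208, 190 and 216 CPM in control libraries. Although cKO replicate 3 was the lowest of its group, it was far above the controls, and the log2 fold change was 1.00 (standard error 0.092, edgeR adjusted p = 1.55e-05). *Hspe1*, which encodes Hsp10, stood at 269, 291 and 274 CPM against 169, 162 and 171 CPM, a log2 fold change of 0.73 (standard error 0.050, edgeR adjusted p = 3.15e-06). The 2 genes lie head to head on chromosome 1, *Hspe1* on the plus strand and *Hspd1* on the minus strand, and their annotated exons share 112 bases. A processed copy, *Hspd1-ps3*, is 99.0% identical over 71.1% of the *Hspd1* transcript and was not tested. The same holds for *AC117239.2*, which is 99.0% identical over 66.5% of the *Hspe1* transcript. The window of *Hspe1*, which covers nearly all of the second *Hspd1* window on the other strand, has the heat shock pair overlapping ETS motifs on both strands. The first *Hspd1* window holds an E-box and an NRF1 motif.
Hspd1 promoter, chr1:55088194-55088493, minus strand: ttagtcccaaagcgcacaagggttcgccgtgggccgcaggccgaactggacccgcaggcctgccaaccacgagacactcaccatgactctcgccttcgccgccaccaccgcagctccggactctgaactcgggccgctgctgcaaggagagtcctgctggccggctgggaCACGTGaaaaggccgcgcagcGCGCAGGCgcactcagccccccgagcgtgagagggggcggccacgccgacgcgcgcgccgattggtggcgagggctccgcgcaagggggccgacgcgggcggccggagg
Hspe1 promoter, chr1:55087898-55088197, plus strand: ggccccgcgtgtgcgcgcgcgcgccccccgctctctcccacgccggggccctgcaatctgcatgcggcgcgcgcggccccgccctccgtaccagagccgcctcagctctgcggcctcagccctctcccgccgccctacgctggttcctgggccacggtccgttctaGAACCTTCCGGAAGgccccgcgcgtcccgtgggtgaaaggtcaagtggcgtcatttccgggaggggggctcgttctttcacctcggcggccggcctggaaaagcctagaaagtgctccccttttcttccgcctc

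*Trap1*, the mitochondrial Hsp90, rose from 126 ± 5.33 to 148 ± 11.8 CPM, a log2 fold change of 0.23 whose call was lost under 2 of 13 alternatives. The ClpXP protease rose in both parts: *Clpx*, the unfoldase, by a log2 fold change of 0.56 and *Clpp*, the peptidase, by 0.55, so that their ratio stayed at 2.08 ± 0.217 in cKO and 2.08 ± 0.316 in control. *Lonp1*, the other large matrix protease, went the other way. It stood at 253, 240 and 191 CPM in cKO and 302, 283 and 312 CPM in control libraries. All cKO values were lower, and the log2 fold change was -0.39 (standard error 0.093, edgeR adjusted p = 0.00574). cKO replicate 3 was the lowest, and without it the log2 fold change was -0.28 and still passed. The ratio of *Lonp1* to *Clpp* was 8.65, 7.26 and 6.79 in cKO and 15.1, 15.6 and 13.2 in control libraries, so the control ratios were all above the cKO ratios. *Pmpca* and *Pmpcb*, the subunits of the processing peptidase, had log2 fold changes of 0.13 and 0.18 and did not pass. The *Lonp1* window holds an E-box.
Lonp1 promoter, chr17:56626854-56627153, minus strand: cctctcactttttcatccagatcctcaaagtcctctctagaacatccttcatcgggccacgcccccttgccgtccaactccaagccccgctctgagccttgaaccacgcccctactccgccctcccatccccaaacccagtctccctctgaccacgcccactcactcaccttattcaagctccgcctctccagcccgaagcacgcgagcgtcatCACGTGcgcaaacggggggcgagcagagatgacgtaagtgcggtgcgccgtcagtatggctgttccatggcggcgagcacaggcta

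Of 5 nucleoid genes, 1 rose and 1 fell, near the 24.1% and 24.5% of all genes, with a median log2 fold change of 0.046. *Polg*, the catalytic subunit of the mitochondrial DNA polymerase and the nucleoid gene with the most counts, stood at 92.5, 103 and 101.4 CPM in cKO and 136, 143 and 131 CPM in control libraries. Every cKO library was lower. This was the largest fall among the 41 genes, -0.46 on the log2 scale (standard error 0.061, edgeR adjusted p = 0.000151). *Polrmt*, the mitochondrial RNA polymerase, moved the other way, from 31.8 ± 3.04 to 46.4 ± 4.03 CPM, a log2 fold change of 0.54 (standard error 0.098, edgeR adjusted p = 0.00114). *Tfam*, which packages mitochondrial DNA, was 78.4 ± 4.71 CPM in cKO and 73.2 ± 5.40 CPM in control, with overlapping groups and an interval of the log2 difference from -0.056 to 0.26. *Twnk*, the helicase, was 17.8 ± 3.03 and 17.3 ± 1.39 CPM, and its interval ran from -0.25 to 0.34. *Tfb2m*, which starts transcription with *Polrmt*, was 24.9 ± 3.84 CPM in cKO and 30.5 ± 2.63 CPM in control. The cKO libraries all lay below the controls, but the log2 fold change of -0.29 missed the threshold at an edgeR adjusted p of 0.0665. An annotated copy, *Gm1818*, is 99.3% identical over 48.5% of the *Tfb2m* transcript and was not tested. mRNAs encoded by mitochondrial DNA were not analysed here. The *Polg* window carries the ETS motif.
Polg promoter, chr7:79466224-79466523, minus strand: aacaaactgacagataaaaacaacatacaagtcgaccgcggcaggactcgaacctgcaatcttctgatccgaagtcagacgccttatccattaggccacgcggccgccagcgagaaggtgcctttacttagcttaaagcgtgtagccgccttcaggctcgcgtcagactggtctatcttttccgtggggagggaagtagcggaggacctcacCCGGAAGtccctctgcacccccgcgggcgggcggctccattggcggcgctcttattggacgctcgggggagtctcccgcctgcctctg

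The prefix also took in *Timmdc1*, an assembly factor of complex I, and *Tomm6os*, an antisense RNA at *Tomm6*. *Timmdc1* stood at 19.8, 18.7 and 21.0 CPM in cKO and 20.9, 17.4 and 14.6 CPM in control libraries, which overlapped, and *Tomm6os* was at about 1 CPM. Neither passed.

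Ratios of 12 pairs of members within a library, chosen with their values known, describe which partners moved together. The ratio lay higher in every cKO than in every control library for 8 pairs, *Hspd1* over *Hspe1* among them, and lower for 1, *Lonp1* over *Clpp*. The widest difference among the higher pairs was that of *Hspa9* to *Grpel1*, and the next was *Timm8a1* to *Timm13*, at 0.748 ± 0.0350 in cKO and 0.456 ± 0.0312 in control, from the gene row of *Timm8a1* with the uncertainty of that row. *Tomm40* to *Tomm40l* was 5.67 ± 0.582 against 3.499 ± 0.133, *Timm50* to *Timm44* 1.28 ± 0.132 against 0.817 ± 0.0474 and *Tomm20* to *Tomm22* 2.76 ± 0.141 against 2.03 ± 0.108. The ratio of *Timm9* to *Timm10*, at 1.88 ± 0.407 and 1.49 ± 0.434, overlapped, as did *Pmpca* to *Pmpcb*, at 1.77 ± 0.0366 and 1.83 ± 0.190.

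**Figure D3:**
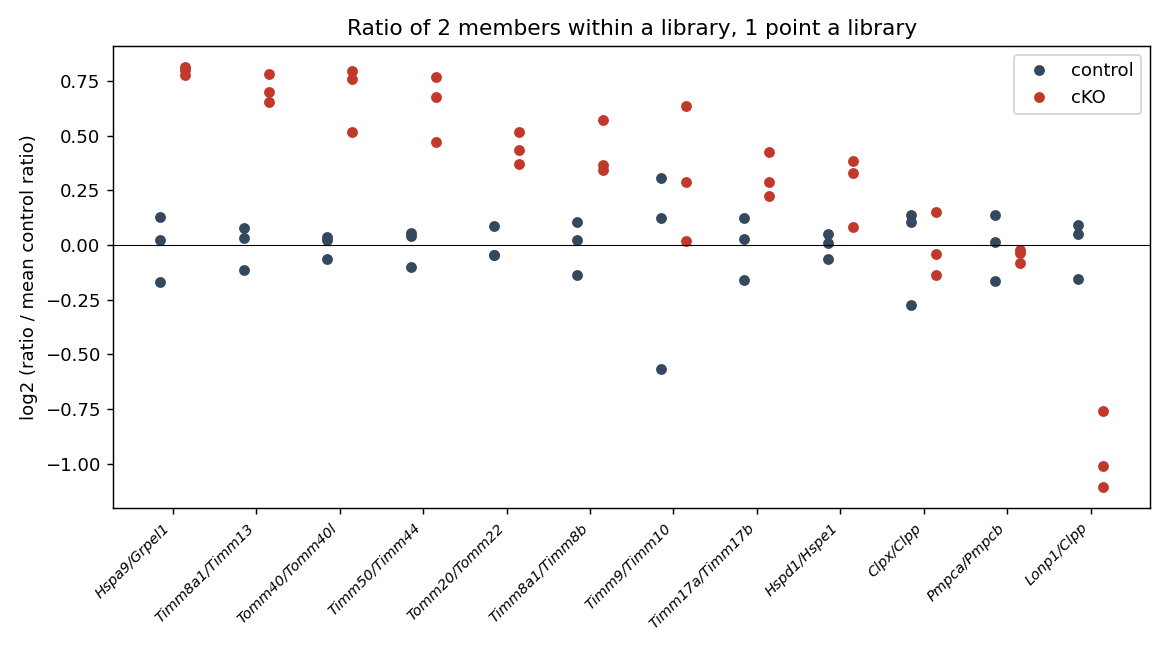
Ratio of the CPM of 2 genes within each library, as log2 over the mean control ratio (y axis), for 12 pairs (x axis), with red points for cKO and dark points for control. The cKO points of *Hspa9* over *Grpel1* are the highest group and those of *Lonp1* over *Clpp* are the only group wholly below the controls.

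Per kilobase of its most counted transcript, *Hspe1* had the highest level in both groups, 359 CPM per kb in cKO and 216 in control. *Hspa9* was next at 197 and 131. The third place was held by *Hspd1* in cKO, at 169, and by *Lonp1* in control, at 101.4 CPM per kb, where *Hspd1* had place 5 at 84.4 and *Lonp1* place 8 in cKO at 77.3. *Tomm5* went from place 12 to 6 and *Tomm34* from 10 to 19. The transcript had a median of 1546 bases (518 to 7280) in the 22 higher genes, 2381 bases (596 to 4712) in the 13 that did not pass and 2626.5 bases (1569 to 7837) in the 6 lower genes, so that the ranges overlap. Across the 41 genes, the log2 fold change and transcript length had a Pearson r of -0.34 and a Spearman rho of -0.36, and the log2 fold change and the control level per kb had 0.14 and 0.071. These genes share 6 libraries and are not independent. The 43 genes lie on 18 chromosomes, with at most 5 on any of them, and 21 share exon bases with another annotated gene, where counts can be mixed if strand was not used. cKO replicate 2 was the highest cKO library for 17 of the 22 higher genes and control replicate 2 the lowest control for 16.

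Of 9 members with several counted transcripts, 0 changed in transcript usage, against 1.37% of the 2990 genes tested by edgeR's diffSpliceDGE, and the smallest unadjusted p was 0.489. *Timm9* drew 63.5% ± 11.4 of its counts from NM_001286203 in cKO and 53.6% ± 8.53 in control, and *Clpx* 75.8% ± 6.15 and 83.5% ± 7.54 from NM_011802. The values of single mice overlapped between the groups for both. No other transcript tool was run.

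Among all genes tested, 24.1% were higher and 24.5% lower, the shares beside which the counts of related lists stand. Of 19 other import and sorting genes, 6 rose (31.6%) and 3 fell (15.8%), with a median log2 fold change of 0.011. The 3 became 2 without cKO replicate 3, control replicate 1 or control replicate 3. *Chchd4*, which oxidises small TIM proteins so that they stay in the intermembrane space, rose from 14.5 ± 2.75 to 31.4 ± 3.62 CPM, a log2 fold change of 1.12. *Oxa1l*, the insertase for proteins made inside mitochondria, fell by 0.57 on the log2 scale, and *Mtx2*, an outer membrane assembly factor, rose by 0.53. Of 14 other quality control genes, 7 rose (50%) and 4 fell (28.6%, and 2 genes without cKO replicate 1), with a median of 0.15. The presequence peptidase *Pitrm1* rose by 0.72 and the prohibitin *Phb* by 0.71, while *Lonp2*, the peroxisomal relative of *Lonp1*, fell by 0.76. Of 28 other nucleoid and mitochondrial RNA genes, 12 rose (42.9%) and 4 fell (14.3%), with a median of 0.24. *Fastkd1* had a log2 fold change of 1.28 and *Atad3a*, an inner membrane ATPase found with nucleoids, 1.09. *Mterf1b* fell from 2.36 ± 0.149 to 1.06 ± 0.140 CPM, a log2 fold change of -1.15, and its near copy *Mterf1a* makes its counts uncertain.

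Among 77 mitochondrial ribosomal protein genes, 24 rose (31.2%) and 18 fell (23.4%), near the 24.1% and 24.5% of all genes, with a median log2 fold change of 0.11. The 18 became 10 without control replicate 1 and 11 or 12 when a cKO library or control replicate 3 was left out. The 3 genes with the largest changes in size were all higher: *Mrpl55* rose by 0.94, *Mrps6* by 0.92 and *Mrpl38* by 0.85. The largest fall was that of *Mrpl27*, named after its values were seen, at -0.60. Of 88 tested nuclear genes whose symbols mark respiratory chain subunits, a list that also takes in Ndufaf assembly factors, 36 rose (40.9%) and 5 fell (5.68%), with a median of 0.11. *Ndufaf4*, an assembly factor, rose by 1.07, and *Cox6b2* by 1.65 from low counts. *Cox6a2* fell from 7.01 ± 1.04 to 0.103 ± 0.111 CPM. Of 19 cytosolic chaperone genes, 13 rose (68.4%) and 2 fell (10.5%, and 1 gene without cKO replicate 3, control replicate 1 or control replicate 3), with a median of 0.49. *Hsph1*, an Hsp70 exchange factor, rose by 1.27, and the chaperonin subunits *Cct6a* and *Cct3* rose by 0.90 and 0.83. The differences between these lists were not tested.

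**Figure D4:**
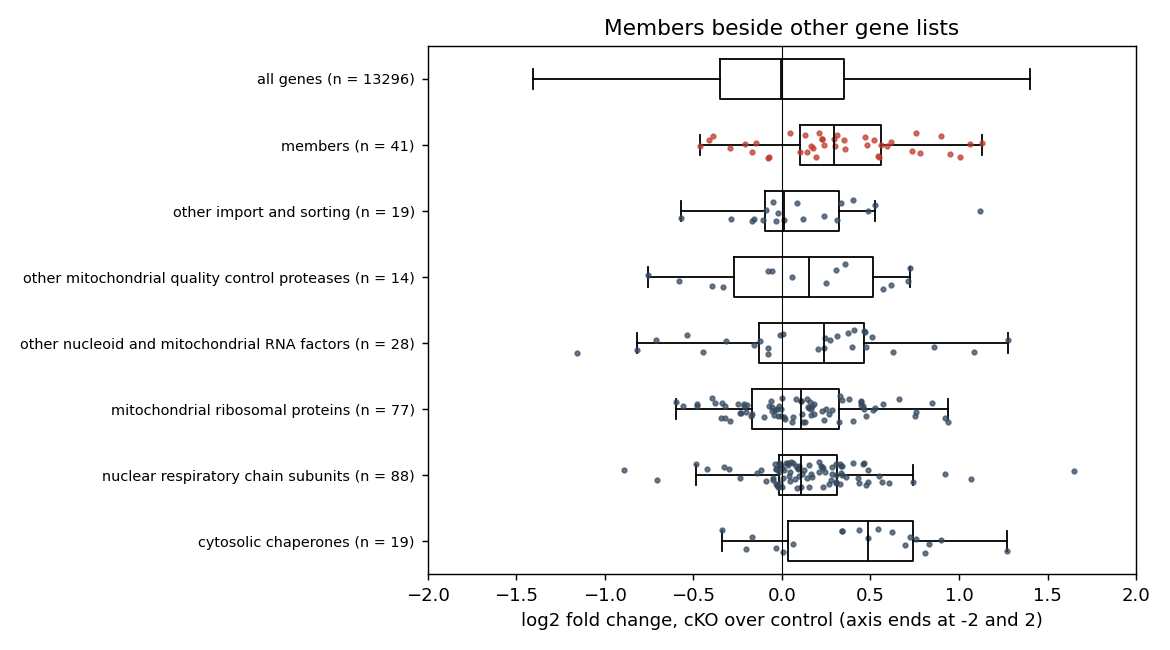
Log2 fold change of cKO over control (x axis, which ends at -2 and 2) for all tested genes, the 41 import, chaperone and nucleoid genes (red) and 6 related lists (dark points, 1 a gene), with boxes from the first to the third quartile and a line at the median. The medians lie at 0.30 for the 41 genes and 0.49 for cytosolic chaperones, and between 0.011 and 0.24 for the other lists; *Cox6a2* lies beyond the axis.

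All 16 genes on a list of regulators of mitochondrial biogenesis and stress were tested, and 7 rose (43.8%) and 3 fell (18.8%). *Atf5*, a factor of the mitochondrial unfolded protein response, rose from 39.4 ± 1.43 to 107 ± 2.25 CPM, a log2 fold change of 1.44 (standard error 0.056, edgeR adjusted p = 3.42e-07). *Ddit3*, which encodes CHOP and is placed in the same response, fell from 39.8 ± 6.45 to 11.1 ± 1.64 CPM, a log2 fold change of -1.84, and its partner *Cebpb* fell from 17.95 ± 1.51 to 7.71 ± 1.94 CPM, -1.22. *Hsf1*, the heat shock factor, rose by 0.71. Of the factors of respiratory gene transcription, *Gabpb1* rose by 0.59, *Yy1* by 0.44 and *Nrf1* by 0.36, and *Sp1* fell by 0.54 on the log2 scale. Of the coactivators, *Ppargc1b* rose by 1.42 from 2.07 ± 0.151 CPM and *Pprc1* rose by 0.43, while *Ppargc1a* had -0.087. *Myc*, a driver of growth genes, was 259 ± 10.8 CPM in cKO and 254 ± 51.5 CPM in control. *Myc*, *Atf4*, *Gabpa*, *Esrra*, *Eif2ak1* and *Ppargc1a* did not pass, with log2 fold changes from -0.14 to 0.11.

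Markers of other states and cells moved in part. Of 9 tested feeder fibroblast markers, *Fn1* and *Col5a1* were higher in cKO. The other 7 all had negative log2 fold changes and did not pass, and the median of the 9 was -0.30. Their sum was 119, 131 and 105 CPM in cKO and 145, 131 and 78.8 CPM in control libraries, which overlap, and 2 of the 12 on the list, *Lum* and *Postn*, were at 0 in all 6. Of 5 plasma cell markers, 2 rose and 3 fell, among them *Jchain*, from 116 ± 27.0 to 7.25 ± 2.33 CPM, and the sum was 646 to 788 CPM in cKO and 831 to 852 CPM in control. T cell markers summed to 23.3 to 25.7 CPM in cKO and 36.5 to 39.7 CPM in control, nearly all from *Lck*, the only T cell marker tested, which fell by 0.64 on the log2 scale, with *Cd3e* at 0. Of 3 tested myeloid markers, *Adgre1* rose by 1.96, from 1.18 ± 0.735 CPM in control to 4.61 ± 0.953 CPM in cKO (SD, n = 3 each). The other 2 had negative log2 fold changes, down to -1.08, and did not pass. For 1 of them every cKO library lay below every control library. The myeloid list summed to 12.1 to 13.7 CPM in cKO and 9.90 to 12.7 CPM in control, with *S100a8* at 0. Of 3 germinal center markers, 1 rose and 2 fell, with sums of 236 to 243 CPM in cKO and 264 to 309 CPM in control. The part of these markers in the changes of the import genes was not tested.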

How the data were processed

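RNA-seq was performed on sorted iGCBs of 3 cKO and 3 control mice. Per the labels and the study's methods, the authors used HISAT2 for alignment of trimmed reads (mm10) and StringTie for quantification, and deposited estimated counts for genes and for RefSeq transcripts, which are whole and not normalized. Tool versions and the strand setting of the counting are not given in the sources used here. Genes were filtered with filterByExpr (minimum count 10), scaled by TMM and tested in edgeR 4.0.16 (R 4.3.3) by the quasi-likelihood test with group as its only term, and p-values were adjusted by Benjamini-Hochberg over all genes tested. A simulation with 200 genes changed by 2-fold recovered 93.9% of the 197 that were tested and also called 12 unchanged genes. It gave every gene the same dispersion and held no changes smaller than 2-fold. Transcript usage was tested with diffSpliceDGE. DESeq2 1.42.0, other size factors, other filters, a replicate block, the *Xist* level as a covariate and each library left out were alternatives. The members and lists were chosen with earlier results of these data known. Values per library are given for the most counted gene of each role and those past 1.5-fold, and for lower genes or ratios singled out after their values were seen. From other lists, all regulators and up to 3 genes each are named. Lengths and exons are from GENCODE M21, promoters from RefSeq, near copies from blastn 2.17.0 at 95% identity over 25% of a transcript. Floors cover counting error only.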

Additional observations from a re-analysis of the deposited data

How the results depend on the processing

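Of 533 recomputed log2 fold changes of the 41 genes, 483 kept their direction and their side of the threshold, 36 lost and 10 gained a call, and 4, none of them called, changed direction. With each library left out, *Tomm40l* ranged from -0.15 to 0.0056 (positive without cKO replicate 1), *Twnk* from -0.077 to 0.17 (negative without cKO replicate 1 or control replicate 2) and *Tomm6os* from -0.047 to 0.75 (negative without control replicate 1). 25 of the 41 genes kept both their direction and their side of the threshold throughout. The count of higher genes ranged from 18 to 24 and the median log2 fold change from 0.25 to 0.31. The count of lower genes, 6, was 3 with the *Xist* level as a covariate and 3 to 5 with each library left out, lowest without cKO replicate 3 or control replicate 1. The same omissions gave 8 to 12 genes higher by more than 1.5-fold, and a test against 1.5-fold itself gave 7. They gave 2 to 3 lower genes of other import and sorting (2 without cKO replicate 3, control replicate 1 or control replicate 3), 2 to 4 lower quality control genes (2 without cKO replicate 1), 10 to 14 lower mitochondrial ribosomal genes (from 18, and 10 to 12 unless the library left out was control replicate 2) and 1 to 2 lower cytosolic chaperones (1 without cKO replicate 3, control replicate 1 or control replicate 3). The cause was not tested. The other counts of the 7 related lists moved by less than 1.5 times. Counts per marker list were not recomputed. The labels do not pair mice by replicate number, although the study used paired t tests for other measures of control and cKO iGCBs. Same-numbered libraries had correlations of 0.0028, 0.11 and 0.20 of their deviations from the group means. Differently numbered libraries had -0.26 to 0.19. These values cannot settle whether the libraries were paired, because the deviations within a group sum to 0. With a replicate block, 21 genes were higher, 4 were lower and the median was 0.30. Low counts limit *Timm8a2* and *Tomm6os*, and *Tomm20l* had 0 counts in every library.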
